A study of Mus musculus with 14 samples.

Results

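The comparison described here asks whether losing matrin-3 in hepatocytes changed open chromatin to the same extent in livers of mice fed chow and in livers of mice fed a high-fat diet. Its members are 73945 genomic intervals of equal width, out of 194004 deposited for the series (88203 in the chow table, 105801 in the high-fat table). They are the intervals of the chow and high-fat tables that could be matched 1 to 1 with at least 50% overlap, and they hold 83.8% of the chow intervals and 69.9% of the high-fat intervals. For each interval the contrast was the high-fat effect (knockout minus floxed) minus the chow effect (knockout minus floxed), and each gene was then taken as 1 locus by adding up all matched intervals nearest to it. Of the members, 68120 fell within 50000 bp of a protein-coding gene and gave 15344 loci with a median of 3 intervals, and 5825 had no such gene.

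Accessibility was measured by ATAC-seq, in which a transposase cuts and tags open DNA, in nuclei of 50 mg of frozen liver from 14 female mice. The 4 groups were floxed controls on chow (3 mice), liver-specific matrin-3 knockouts on chow (3 mice), floxed controls on the high-fat diet (4 mice) and knockouts on the high-fat diet (4 mice). Controls and knockouts both carried floxed Matr3 alleles, and the knockouts also carried an Albumin-Cre transgene, which is active in hepatocytes, so other liver cells keep the gene. Diets ran for 16 weeks from 7 weeks of age, the high-fat diet had 60 kcal% fat, and a 12 h fast is described for the high-fat animals only. Each diet has its own table of intervals and counts, so that diet, fasting and table cannot be told apart. Diet itself was therefore not tested, and only the genotype effects, each taken within its own diet, were compared. That comparison is confounded in the same way. What is called a difference between diets below may also go with fasting, table or read depth, which cannot be told apart.

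Matrin-3 is an RNA- and DNA-binding protein of the nuclear matrix that takes part in splicing and in the organisation of chromatin. Open chromatin in hepatocytes marks promoters and, in larger number, enhancers, where liver factors such as the HNF family, C/EBP proteins and nuclear receptors bind. Among those nuclear receptors, CAR (Nr1i3) and PXR (Nr1i2) sense drugs and other foreign compounds and turn on cytochrome P450 and conjugating enzymes. The epidermal growth factor receptor, Egfr, is the receptor tyrosine kinase of hepatocytes that drives growth and regeneration signals.

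Of the loci called below, 3 have a RefSeq promoter entry that overlaps a matched interval. Their upstream sequences are shown because the difference between diets did not pass the test at these promoters although it did at the loci around them. A difference that did not pass does not show that a promoter was unchanged. Each line gives the 250 bases before the start site in GRCm38.p6, 5′ to 3′ on the strand of the gene, with capitals for matches to searched motifs. Egfr lies at chr11:16751953-16752202 (+ strand), Gadd45g at chr13:51846425-51846674 (+ strand) and Gsta3 at chr1:21240335-21240584 (+ strand).
Egfr: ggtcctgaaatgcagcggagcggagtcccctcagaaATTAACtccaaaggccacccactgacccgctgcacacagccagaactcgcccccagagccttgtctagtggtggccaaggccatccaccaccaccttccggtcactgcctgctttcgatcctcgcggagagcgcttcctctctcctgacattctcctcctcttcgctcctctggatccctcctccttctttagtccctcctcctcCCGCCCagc
Gadd45g: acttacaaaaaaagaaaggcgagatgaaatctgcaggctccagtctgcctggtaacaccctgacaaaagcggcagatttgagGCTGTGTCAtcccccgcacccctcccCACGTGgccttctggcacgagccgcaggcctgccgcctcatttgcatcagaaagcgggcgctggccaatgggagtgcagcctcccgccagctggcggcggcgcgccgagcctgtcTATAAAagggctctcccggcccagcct
Gsta3: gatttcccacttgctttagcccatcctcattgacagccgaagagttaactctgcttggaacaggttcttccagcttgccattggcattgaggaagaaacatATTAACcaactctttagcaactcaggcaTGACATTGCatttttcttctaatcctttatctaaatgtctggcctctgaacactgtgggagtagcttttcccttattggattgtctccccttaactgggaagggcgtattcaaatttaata
The searched motifs, on both strands, were the TATA box TATAAA, the GC box GGGCGG, the cyclic AMP response half-site TGACG, the AP-1 motif TGANTCA, the nuclear receptor half-site AGGTCA, the E-box CACGTG, the core of the antioxidant response element TGACNNNGC, the forkhead motif TGTTTAC, the HNF1 half-site GTTAAT and the STAT motif TTCCNGGAA. The Egfr window held a GC box starting 9 bases before the start site and an HNF1 half-site, motifs that 32.7% and 6.43% of 32841 RefSeq promoter windows of this length hold. The Gadd45g window held a TATA box 27 bases before the start site, an E-box and an antioxidant response core, held by 12.4%, 6.02% and 10.2% of windows. Gsta3 had an antioxidant response core and an HNF1 half-site. GC content was 60.8% for Egfr, 62% for Gadd45g and 42% for Gsta3, against a median of 52.4% over all windows. These matches describe letters and are not evidence of binding.

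Reads in intervals totalled 15.5 to 35 M per chow library and 7.59 to 10.4 M per high-fat library, and matched intervals held 90 to 90.7% and 80.9 to 82.9% of them. The common coefficient of variation between mice was 0.165 for intervals and 0.108 for loci, so that the median standard error (SE) of a difference was 0.283 and 0.162 on the log2 scale. Hepatocyte loci were open in every library: Hnf4a, which encodes a master regulator of hepatocytes, held 421 to 621 CPM (read counts scaled to library size) and Alb 387 to 1581 CPM. The 5 matched intervals of Matr3 itself held 77.2 to 112 CPM with no difference between genotypes in the test (adjusted p 0.719 for chow and 0.831 for high-fat livers, edgeR). Of these intervals 1 lay in the gene body and the others beside the gene, so they do not check the deletion. The 2 chow libraries numbered 2 in the deposited table, floxed and knockout, stood apart from the other chow libraries on the second principal component (-73 and -46.6, against -0.294 to 35 for the other 4) and were the shallowest of that diet. Chow columns carry a genotype and a number but no label of a single mouse, and p-values measure the spread between these libraries.

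Of 15344 loci, 6 (0.0391%) passed the test of the difference itself (edgeR quasi-likelihood test, Benjamini-Hochberg adjusted p under 0.05): Egfr and Gadd45g with a higher effect on the high-fat diet, and Car3, Gsta3, Cyp2b13 and Abi3bp with a lower effect. The number of called loci depended on the method and was 28 with DESeq2 and 57 with limma-voom and quality weights, each including all 6. Treating libraries of a diet with the same number as pairs, which the labels do not state, gave 120, again with all 6. With edgeR's robust option 3 loci were called, and Egfr, Cyp2b13 and Gadd45g were not among them. With the intervals of Egfr taken out of the table, 4 of 15343 loci (0.0261%) were called, and the adjusted p of Gadd45g was 0.0541. At the level of single intervals 135 of 73945 (0.183%) were called, 99 higher and 36 lower, and leaving out those of Egfr left 87 (0.118%), 51 higher and 36 lower. The share of higher calls was 73.3%, and 72.7 to 75.2% under 3 other scalings in edgeR. A fit that changed model and scaling together (limma-voom with cyclic loess) called 20 intervals, 45% of them higher. Called intervals had absolute differences between 1.09 and 3.97 on the log2 scale, with a median of 2.04. The median difference over all loci was 0.00, and an unadjusted p under 0.05 was reached by 1031 loci and 5498 intervals.

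Counting loci in place of intervals changed the picture, because called intervals lay in few genes. They belonged to 39 genes (0.254% of loci), 30 with higher and 9 with lower intervals, and 5 called intervals had no gene within 50000 bp. Egfr alone held 48 of the 135, which is 35.6%, and 7 genes with 5 or more called intervals each held 94 of them (69.6%). In 28 of the genes a single interval was called. For 34 of the 39 genes the locus as a whole was not called, as at Zmiz1, chosen after its values were seen, where 1 of 69 intervals differed by 1.69 (SE 0.25, adjusted p 0.00277, edgeR) while the locus differed by -0.02. Conversely Abi3bp was called as a locus with no called interval.

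Few called differences lay at promoters with a RefSeq entry. Of 13961 matched intervals within 1000 bp of such a start site of their gene, 1 (0.00716%) was called. It lay near the start of Pde6h, a subunit of a retinal phosphodiesterase. Intervals of genes without an entry, such as Car3, Serpina3k and Ttr, could not count as promoter and fell into the classes below. In gene bodies 104 of 37034 were called (0.281%, or 0.157% without Egfr), and in intergenic stretches near a gene 25 of 17125 (0.146%, or 0.134% without Egfr).

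**Figure D1:**
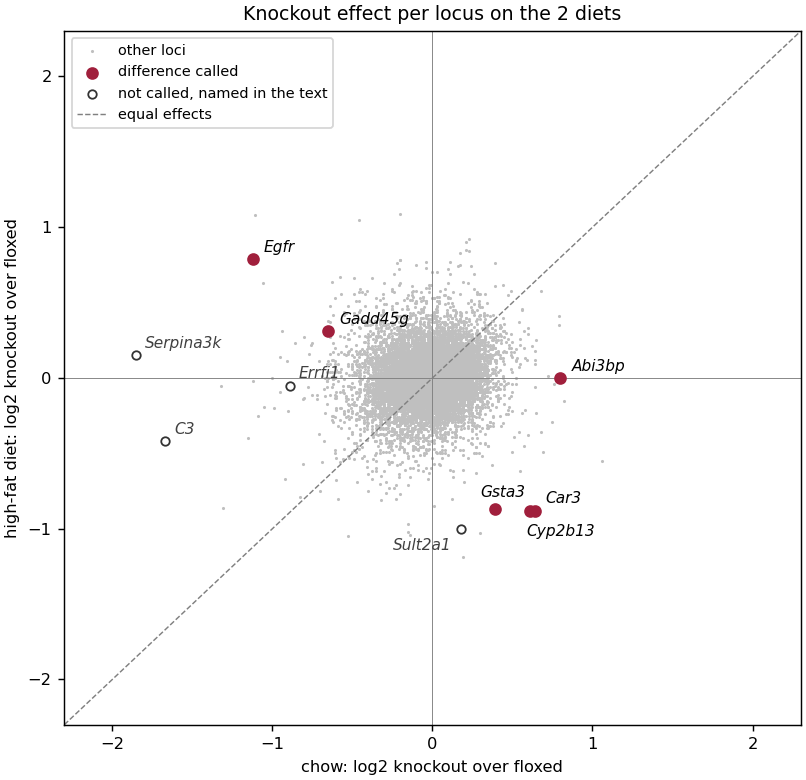
Knockout effect of each of the 15344 loci on chow (horizontal axis) and high-fat diet (vertical axis), both as log2 of knockout over floxed; filled red points are the 6 loci with a called difference, open points are named loci that were not called, and the dashed line marks equal effects. The called loci, which were picked by a test of this distance, lie 2 above and 4 below the dashed line. Most loci cluster around 0 on both axes. Some uncalled loci, such as Serpina3k, lie farther from the line than any called locus. In all, 42 loci (0.274%) have an absolute difference over 1.

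The genotype effects behind these differences were rarely called on both diets. On chow 8 loci (0.0521%) were called, 2 higher and 6 lower in the knockout, and on the high-fat diet 17 (0.111%), 5 higher and 12 lower, with no locus called on both. Over all loci, knockouts lay below controls on chow and above them on the high-fat diet without overlap at 15 (0.0978%), 2 of them called, and the reverse held at 23 (0.15%), 3 of them called. Separation in the same direction on both diets was more frequent, with knockouts below controls at 37 loci (0.241%) and above them at 39 (0.254%), none of them called. The chow calls included C3, Serpina3k, Cyp2c70, Egfr and Abi3bp, and the high-fat calls included Car3, Gsta3, Cyp2b13, Sult2a1, Ttr, Ciart and Nr4a1. Chow calls had a median size of 1.21 and, taken in the same direction, a median effect of 0.03 on the high-fat diet. High-fat calls had a median size of 0.67 and a median effect of 0.03 on chow. The difference itself was called for 2 of the 8 and 3 of the 17, so for the others a gap between the diets was not shown. Across all 15344 loci the effects on the diets had a Pearson correlation of 0.12 (Spearman 0.15), given as a description over genes, which are not replicates.

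Among called intervals, opposite effects prevailed. In 88 intervals the knockout was lower on chow and higher on the high-fat diet, in 36 it was higher on chow and lower on the high-fat diet, and in 11 it was lower on both, less so on the high-fat diet. Effects of opposite sign thus made up 91.9% of the called intervals, 87.4% without Egfr, beside 47.1% of all matched intervals. A large difference between 2 effects favours opposite signs by construction, so these shares describe the calls and test nothing.

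Egfr (chromosome 11, 16752203 to 16913907) was the locus with the most called intervals, 48 of 87 matched. Its summed intervals held 1441, 687 and 1364 CPM in floxed livers on chow and 431, 549 and 629 CPM in knockout livers on chow. With high-fat feeding they held 645, 604, 634 and 570 CPM in floxed livers and 891, 1311, 929 and 1098 CPM in knockout livers. Knockout libraries were thus all below the floxed ones on chow and all above them on the high-fat diet, and the chow floxed library numbered 2 was far below the other floxed chow libraries. The chow effect was -1.12 on the log2 scale (SE 0.20, adjusted p 0.0398), the high-fat effect 0.79 (SE 0.17, adjusted p 0.0909) and their difference 1.90 (SE 0.26, adjusted p 0.00447, edgeR). The effects thus had opposite signs, but the high-fat effect alone did not pass the threshold. In a fit that guards against outlying loci (edgeR's robust option) the same difference of 1.90 had an adjusted p of 0.131.

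The Egfr pattern ran through the whole locus: the chow effect was below 0 at 87 of 87 intervals and the high-fat effect above 0 at 85 of 87. Intervals of a locus come from the same 14 libraries, so their signs, here and at the loci below, are not separate observations. The Egfr pattern was not even along the gene. In the first 25 kb after the start site the median chow effect was -1.98 and the median high-fat effect 0.86, with 17 of 23 intervals called. From 25 to 50 kb these medians were -1.84 and 1.12, with 19 of 23 called. From 75 to 100 kb the chow effect had shrunk to a median of -0.75 while the high-fat effect was 1.20, and 1 of 14 intervals was called. In these medians the decline was one of the chow effect, and the median high-fat effect lay between 0.86 and 1.20 in all bins after the start site. Single libraries weighed on the far bins. At 82187 bp, floxed livers on chow held 15.2, 8.43 and 4.34 CPM and knockout livers 2.9, 5.02 and 8.6 CPM, with overlap. At 97473 bp, high-fat knockout livers held 4.92, 17.6, 4.95 and 6.65 CPM, and floxed livers 3.42, 2.69, 5.33 and 4.66 CPM.

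**Figure D2:**
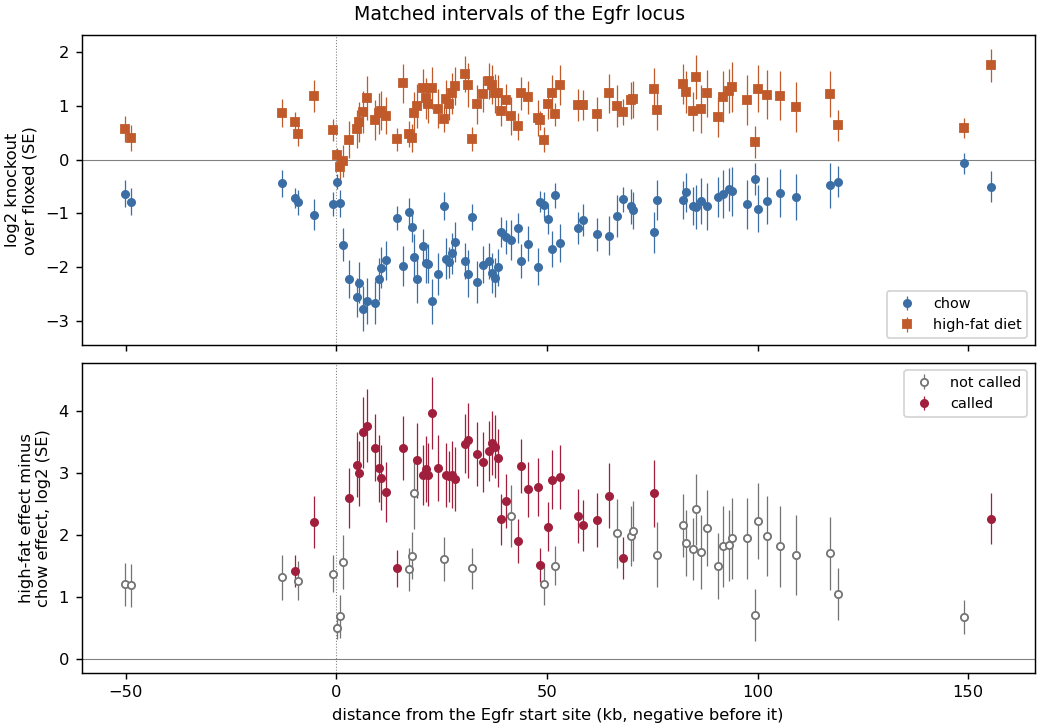
Knockout effects at the 87 matched intervals of Egfr by distance from its start site in kb. The upper panel gives the log2 effect on chow (circles) and on the high-fat diet (squares), the lower panel their difference (high-fat minus chow) with called intervals filled, and bars are standard errors. Chow effects reach their lowest values in the first 25 kb and high-fat effects stay above 0 almost throughout, while the interval at the start site shows a small difference.

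The largest difference at Egfr, and of all called intervals, was 3.97 (SE 0.58, adjusted p 0.00248, edgeR) at chr11:16774612-16775112, in the gene body 22659 bp from the start site. It held 8.43, 1.92 and 12.8 CPM in floxed and 1.02, 1.06 and 1.63 CPM in knockout livers on chow. The same interval held, under high-fat feeding, 3.83, 3.04, 3.51 and 2.47 CPM in floxed and 6.99, 9.2, 5.27 and 11 CPM in knockout livers. Groups did not overlap on either diet. At the promoter, by contrast, the interval at chr11:16751982-16752482, which covers most of the sequence shown above, held 69, 49.7 and 84.8 CPM in floxed and 47.7, 46 and 59.5 CPM in knockout livers on chow, where the groups overlapped. The 8 high-fat libraries held between 46.5 and 57.7 CPM there, and the difference of 0.50 (SE 0.19, adjusted p 0.499, edgeR) did not pass. The interval 793 bp before the start site differed by 1.37 (SE 0.30, adjusted p 0.0614), close to the threshold. That 766 bp after it differed by 0.68 (SE 0.35, adjusted p 0.704).

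The EGF receptor pathway list held the receptors, their ligands and feedback regulators, 23 measured of 24, and Egfr was the only locus called. With 0.0391% of all loci called, the lack of a further call in a list of this size is near the background. Erbb2 and Erbb3, sister receptors, differed by 0.04 and -0.21, and the ligand genes Egf, Tgfa and Hbegf by 0.00, -0.04 and 0.27. The median of the list was -0.02, beside 0.00 for all loci. Errfi1, which encodes a feedback inhibitor that binds the receptor's kinase domain, had 5 of 31 intervals called (16.1%, beside 0.183% of all intervals), all higher, and as a locus a difference of 0.84 (SE 0.24, adjusted p 0.35, edgeR). Errfi1 held 1359, 872 and 1347 CPM in floxed and 472, 745 and 711 CPM in knockout livers on chow, with no overlap, and its high-fat groups overlapped (1094 to 1549 CPM in floxed and 996 to 1415 CPM in knockout livers). Its high-fat effect was -0.05.

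Car3 (chromosome 3, 14863538 to 14872381) encodes carbonic anhydrase 3, an abundant cytosolic enzyme of pericentral hepatocytes, and had the smallest adjusted p of all loci. On chow it held 297, 218 and 210 CPM in floxed and 431, 305 and 394 CPM in knockout livers. Under high-fat feeding the locus held 205, 248, 211 and 266 CPM in floxed and 136, 128, 120 and 121 CPM in knockout livers. The knockout was above the controls on chow and below them on the high-fat diet, with no overlap on either. The difference was -1.52 (SE 0.18, adjusted p 0.000784), made of 0.64 on chow (adjusted p 0.109) and -0.88 on the high-fat diet (adjusted p 0.00414, edgeR). All 16 matched intervals had an effect above 0 on chow and below 0 on the high-fat diet, and 10 were called, 5 in the gene body and 5 beside the gene. The interval with the smallest p, at chr3:14872979-14873479 just outside the gene, held 21.2, 13.4 and 15.1 CPM in floxed and 38, 25.3 and 27.2 CPM in knockout livers on chow. High-fat libraries held 14.5, 16.2, 16.6 and 26.8 CPM in floxed against 6.6, 4.33, 3.67 and 4.33 CPM in knockout livers. This is a difference of -2.82 (SE 0.32, adjusted p 0.000304, edgeR).

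**Figure D3:**
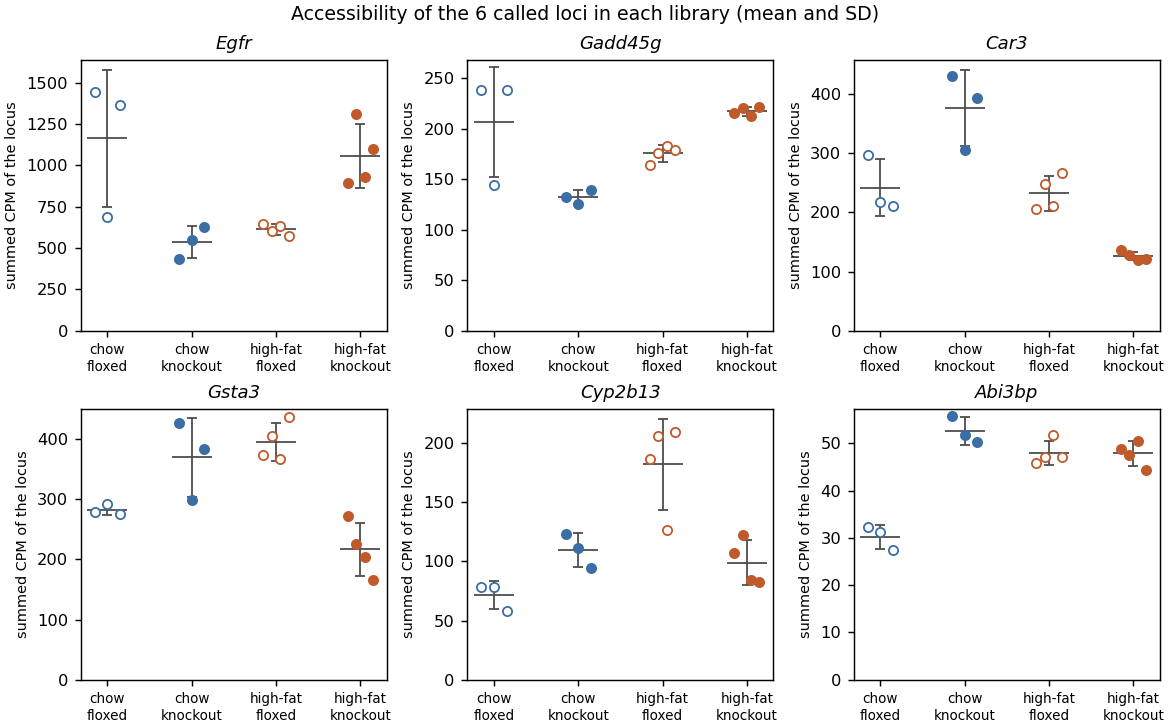
Summed accessibility in CPM of the 6 called loci in each of the 14 libraries by group; points are libraries, open for floxed and filled for knockout, and the line and bar give the mean and SD. At Egfr and Gadd45g the knockouts lie below the controls on chow and above them on the high-fat diet; at Car3, Gsta3 and Cyp2b13 the reverse holds; Abi3bp differs on chow and overlaps on the high-fat diet.

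Gsta3 (chromosome 1, 21240565 to 21265575) encodes an alpha-class glutathione S-transferase, which conjugates reactive compounds to glutathione. Floxed livers on chow held 279, 292 and 276 CPM and knockout livers 427, 298 and 384 CPM. Under high-fat feeding floxed livers held 373, 405, 367 and 436 CPM and knockout livers 272, 225, 204 and 165 CPM. Groups did not overlap on either diet, but the chow knockout library numbered 2 lay just above the controls. The difference was -1.26 (SE 0.19, adjusted p 0.00715), and the high-fat effect of -0.87 passed (adjusted p 0.00414) while the chow effect of 0.39 did not (adjusted p 0.434, edgeR). Of 28 intervals 13 were called, 10 in the gene body and 3 beside the gene, and none at the promoter, whose interval at chr1:21240121-21240621 differed by -0.85 (SE 0.28, adjusted p 0.362).

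Cyp2b13 (chromosome 7, 26061388 to 26096197) encodes a cytochrome P450 that female mouse livers express more than male ones. It held 78.5, 78.7 and 58.2 CPM in floxed and 123, 111 and 94.7 CPM in knockout livers on chow. In the high-fat groups it held 186, 206, 126 and 209 CPM in floxed and 107, 122, 84.2 and 82.4 CPM in knockout livers. Groups did not overlap on either diet, although on the high-fat diet the lowest floxed and the highest knockout library came close. The difference was -1.49 (SE 0.22, adjusted p 0.00715, edgeR), and 5 of 11 intervals were called. When the locus was limited to intervals that overlap the gene, and in the robust fit, the call was lost, with an adjusted p of 0.104 at the most. Cyp2b genes are near copies of one another, and the sources used here do not say how reads shared by several copies were placed, which leaves this locus uncertain. Its neighbour Cyp2b9, with 37 intervals and none called, differed by -0.79 (SE 0.28, adjusted p 0.537).

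Abi3bp (chromosome 16, 56477801 to 56690135), which encodes a protein of the extracellular matrix, differed in another way. It held 32.2, 31.2 and 27.4 CPM in floxed and 55.8, 51.8 and 50.2 CPM in knockout livers on chow. In the high-fat groups it held 45.8, 47.2, 51.7 and 47.1 CPM in floxed and 48.9, 47.6, 50.5 and 44.4 CPM in knockout livers. The knockouts were clearly above the controls on chow only, and the high-fat groups overlapped. The chow effect was 0.80 (SE 0.09, adjusted p 0.000358), the high-fat effect was -0.00 (SE 0.08) and the difference -0.80 (SE 0.12, adjusted p 0.00775, edgeR). All 5 intervals had a positive chow effect. Without the chow knockout library numbered 1 the adjusted p was 0.0624.

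Gadd45g (chromosome 13, 51846675 to 51848475), a stress-induced gene whose product restrains cell division, was the second locus with a higher effect on the high-fat diet. It held 238, 144 and 238 CPM in floxed and 132, 125 and 139 CPM in knockout livers on chow. Values for the high-fat diet were 164, 176, 183 and 179 CPM in floxed and 215, 220, 212 and 221 CPM in knockout livers. Again the groups did not overlap on either diet, with the chow floxed library numbered 2 close to the knockouts. The difference was 0.96 (SE 0.17, adjusted p 0.0453, edgeR), and 2 of its 13 intervals were called. The stronger, at chr13:51849177-51849677 beyond the end of the gene, held 23.3, 9.26 and 25.6 CPM in floxed and 4.54, 5.59 and 6.67 CPM in knockout livers on chow. In the high-fat groups it held 5.61, 8.29, 8.23 and 5.75 CPM in floxed and 11.8, 16.8, 13.4 and 19.8 CPM in knockout livers, a difference of 2.94 (SE 0.38, adjusted p 0.00111). At the promoter, chr13:51846479-51846979, the difference was 1.47 (SE 0.35, adjusted p 0.098). The call for the locus was borderline and was lost in 19 of 30 alternative analyses, in 13 of them by leaving out 1 library. A pair of called intervals on the same chromosome, at chr13:52183741-52184241 and chr13:52191212-52191712, had no protein-coding gene within 50000 bp and differed by 2.24 (SE 0.36) and 2.04 (SE 0.38).

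C3 and Serpina3k had several called intervals but were not called as loci. C3 (chromosome 17, 57203967 to 57228136) encodes the central complement protein, and 7 of its 35 intervals were called, all higher. It held 1404, 989 and 884 CPM in floxed and 302, 213 and 516 CPM in knockout livers on chow, a gap without overlap and a chow effect of -1.67 (SE 0.26, adjusted p 0.02, edgeR). High-fat values were 484, 535, 466 and 476 CPM in floxed and 361, 539, 261 and 303 CPM in knockout livers, where the groups overlapped and the effect was -0.42. The difference between diets, 1.24 (SE 0.33, adjusted p 0.305), did not pass. Its clearest interval, at chr17:57223807-57224307 in the gene body, differed by 1.92 (SE 0.29, adjusted p 0.00277), with knockout effects of -2.19 for chow and -0.27 for high-fat livers. At all 7 called intervals of C3 both effects were below 0, and these make up most of the 11 called intervals with that pattern.

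Serpina3k (chromosome 12, 104338486 to 104345739), a gene for a secreted serine protease inhibitor, had 6 of 12 intervals called. It held 484, 181 and 506 CPM in floxed and 97.7, 89 and 137 CPM in knockout livers on chow, with no overlap. On the high-fat diet it held 248, 297, 155 and 162 CPM in floxed and 302, 238, 168 and 250 CPM in knockout livers, with overlap. The difference of the locus was 2.01 (SE 0.39, adjusted p 0.0857, edgeR), and that of its strongest interval, at chr12:104342837-104343337, was 2.94 (SE 0.44, adjusted p 0.00277). Serpina3 genes form a cluster of near copies, so that these values too are uncertain.

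Genes with 1 or 2 called intervals included Lepr, the leptin receptor, with 2 of 8 intervals called and a summed difference of 0.83 (SE 0.21, adjusted p 0.238, edgeR). With a shorter limit on the distance to the gene the locus passed with 1.15 (adjusted p 0.024), limited to those that overlap it with 1.54 (adjusted p 0.0118), and without the chow floxed library numbered 2 with 1.01 (adjusted p 0.013). The stronger of its called intervals, at chr4:101741890-101742390, held 15.3, 12.1 and 26.8 CPM in floxed and 11.4, 12.6 and 9.02 CPM in knockout livers on chow. On the high-fat diet it held 8.89, 10.7, 16.8 and 12.9 CPM in floxed and 29.8, 28.8, 27.3 and 31.7 CPM in knockout livers, a difference of 1.99 (SE 0.31, adjusted p 0.00311). Here the groups separated on the high-fat diet and overlapped on chow. At Ttr, which encodes the thyroxine carrier transthyretin, 1 of 20 intervals was called, with a difference of -1.44 (SE 0.20, adjusted p 0.00193). That interval held 28.9 to 41.4 CPM in floxed and 41.5 to 42.3 CPM in knockout livers on chow, against 18.4 to 24.9 CPM and 8.63 to 9.88 CPM on the high-fat diet. Igf1, the growth hormone target that encodes insulin-like growth factor 1, had 1 of 29 intervals called and a locus difference of 1.10 (SE 0.31, adjusted p 0.35).

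Gene lists were described by the number of called loci and by their median, beside a median of 0.00 and 49.4% of differences below 0 for all loci. With 0.0391% of loci called, a list without a call is near the background. The median farthest from 0 was that of the CAR and PXR xenobiotic targets, 41 measured of 46, at -0.35. Of its loci 36 of 41 (87.8%) had a difference below 0, and in 27 (65.9%) the knockout effect was above 0 on chow and below 0 on the high-fat diet, a pattern shown by 21.7% of all loci. Members of the same gene families recur in this list, such as Gsta1, Gsta2, Gsta3 and Gsta4, so its loci are not separate observations. How reads shared by near copies were placed is not known. Gsta3 and Cyp2b13 were called. Of 399 intervals in the list 18 were called, beside 0.183% of all matched intervals. All 18 were lower, and they were the 13 of Gsta3 and the 5 of Cyp2b13. The largest estimate was at Cyp3a25 with -1.61 (SE 0.48, adjusted p 0.389, edgeR), which did not pass and leaned on the chow knockout library numbered 1, at 505 CPM beside 110 to 158 CPM in the other knockout and 107 to 146 CPM in the floxed chow libraries. Sult2a1, a hydroxysteroid sulfotransferase gene, differed by -1.18 (SE 0.22, adjusted p 0.0704). It held 22.3 to 33.3 CPM in floxed and 28.8 to 36.7 CPM in knockout livers on chow, with overlap, and 35.5 to 50.9 CPM against 16.5 to 25.6 CPM on the high-fat diet, without. The receptor gene Nr1i3 differed by -0.91 (SE 0.26, adjusted p 0.35), while Nr1i2 differed by 0.16. Alas1, the first enzyme of heme synthesis, went the other way with 0.75 (adjusted p 0.725). The median of this list lay between -0.44 and -0.23 over 30 alternative analyses.

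Several other lists had smaller medians of the same sign. NRF2 targets, which answer oxidative stress, had a larger share of differences below 0, 21 of 23 (91.3%), and of loci up on chow and down on the high-fat diet by sign (69.6%), with a median of -0.17. None was called, and the smallest adjusted p was 0.35, at Gclc. Gsta1, Gsta2, Gsta4, Gstm1, Gstm3 and Ephx1 are in both lists. Female-biased liver genes had a median of -0.15 (21 of 29 below 0) and Cyp2b13 as the called locus. Cyp2b13 and Sult2a1 are also in the CAR and PXR list. Male-biased liver genes had a median of 0.05 (12 of 25 below 0). Pericentral hepatocyte and WNT target genes had a median of -0.23 (18 of 24 below 0) with Car3 called. The glutamine synthetase gene Glul and the WNT target Axin2 lay near that median, at -0.23 and -0.24. In this list 6 loci lay above 0, the highest being Rhbg at 0.24. The pericentral list shares Gstm3 with the CAR and PXR list. Periportal hepatocyte genes had a median of 0.11 (6 of 20 below 0). The circadian clock genes had a median of -0.18 (16 of 21 below 0) and no call. Among them Ciart, a clock repressor, fell in the knockout on the high-fat diet (effect -0.61, adjusted p 0.0403), from 38.3 to 52.5 CPM in floxed to 25.1 to 30.8 CPM in knockout livers, and its difference between diets was -0.72 (SE 0.17, adjusted p 0.198).

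**Figure D4:**
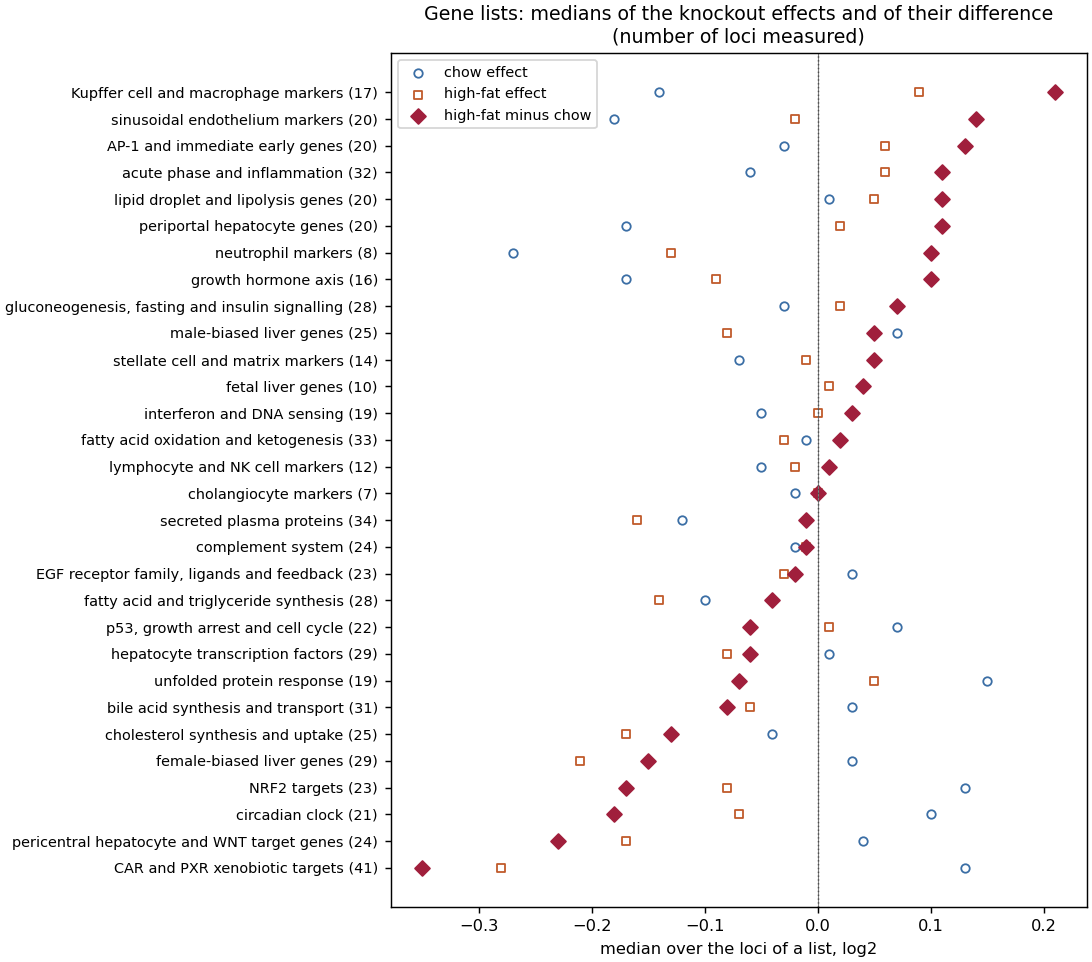
Median log2 knockout effect in each diet (circles for chow, squares for high-fat) and median of their difference (diamonds) for each of 30 gene lists, with the number of measured loci in parentheses. The median difference runs from -0.35 for CAR and PXR targets to 0.21 for Kupffer cell and macrophage markers, beside 0.00 for all loci.

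Lists of lipid and glucose metabolism had medians between -0.13 and 0.11. Fatty acid and triglyceride synthesis (28 loci) had a median difference of -0.04, fatty acid oxidation and ketogenesis (33 loci) 0.02, bile acid genes (31 loci) -0.08 and cholesterol genes (25 loci) -0.13. In the cholesterol list 18 of 25 differences (72%) were below 0. No locus or interval in these 4 lists was called, which is near the background. Lipid droplet genes (20 loci) had a median of 0.11, with Plin4, a lipid droplet coat protein, at 0.64 (SE 0.25, adjusted p 0.618). Plin4 held 63.7 ± 9.87 CPM (SD, n = 3) in floxed and 61.7 ± 7.56 CPM (SD, n = 3) in knockout livers on chow, and 111 ± 23.8 CPM (SD, n = 4) and 169 ± 48.9 CPM (SD, n = 4) on the high-fat diet. The fasting and insulin signalling list (28 loci) had a median of 0.07, with 20 of 28 differences above 0 and 2 of 424 intervals called, both at Lepr. In it Nr4a1, an immediate early nuclear receptor, rose in the knockout on the high-fat diet (0.51, SE 0.09, adjusted p 0.0439, edgeR), from 88 to 101 CPM in floxed to 113 to 155 CPM in knockout livers, with a difference between diets of 0.47 (adjusted p 0.387). AP-1 and immediate early genes had a median of 0.13 and no call. Acute phase genes had a median of 0.11 with 3 of 253 intervals called. The complement list had a median of -0.01 with 7 of 150 intervals called, all at C3. Of all matched intervals 0.183% were called.

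Markers of other liver cells were measured in the same way. Kupffer cell and macrophage markers (17 measured of 24, none at 0) had a median difference of 0.21 and no call. Their summed accessibility was 698 to 776 CPM in floxed and 609 to 631 CPM in knockout livers on chow, without overlap, and 691 to 739 CPM against 712 to 780 CPM on the high-fat diet. The high-fat ranges overlapped. The median difference had the sign of the differences at Egfr, Gadd45g, C3 and Serpina3k, was much smaller, and was the highest of the 30 list medians. Over 30 alternative analyses the median lay between 0.07 and 0.38, the lowest with limma-voom and cyclic loess, which change model and scaling together. Sinusoidal endothelium markers (20 of 21, none at 0) had a median of 0.14 and summed to 972 to 1020 CPM and 828 to 979 CPM on chow and to 967 to 1076 CPM and 937 to 1043 CPM on the high-fat diet. Stellate, lymphocyte, neutrophil and cholangiocyte markers had medians between 0.00 and 0.10. The stellate median kept its sign in 29 of the 30 alternatives (lowest -0.05), and those of the last 3 lists changed sign in more of them. The part of these cells in the differences above was not tested, and in whole liver fewer cells of a type and less open chromatin per cell cannot be told apart.

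How many loci were called depended on single libraries, while the sign of the called differences did not. Leaving out 1 library at a time gave 4 to 30 called loci and 82 to 370 called intervals, and the largest counts came without the chow floxed library numbered 2, with 30 loci and 370 intervals. Without both chow libraries numbered 2 there were 39 called loci, among them all 6, and 397 intervals. Egfr differed by 1.72 to 2.17 and remained called in all 14 of these fits. Car3 and Gsta3 were called in each of the 30 alternative analyses.

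**Figure D5:**
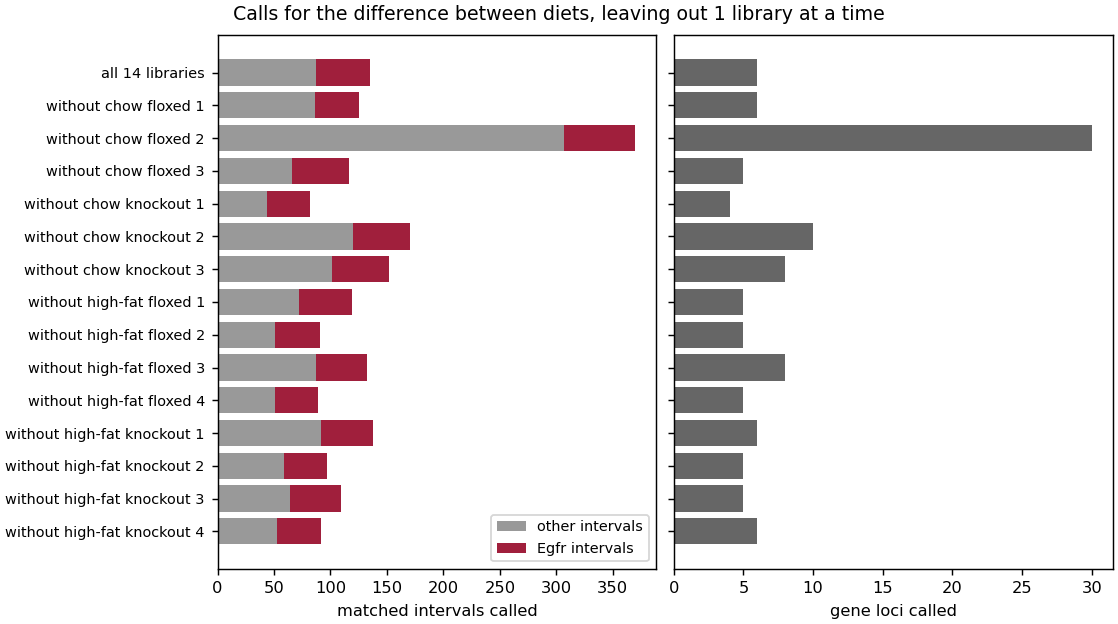
Number of matched intervals (left) and gene loci (right) called for the difference between diets with all 14 libraries and without each in turn, with the intervals of Egfr in red. Leaving out the chow floxed library numbered 2 raises the counts to 370 intervals and 30 loci, and every other row has 4 to 10 loci.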

How the data were processed

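ATAC-seq read counts per interval were deposited by the authors in 1 table per diet. Per the submitters' processing notes, MACS2 2.2.7.1, HOMER 4.11, bedtools, Bowtie2 2.4.2 and Trim Galore 0.6.7 were used with the mm10 build. The sources used here do not give the handling of duplicates or of the transposase offset. The intervals come from the same libraries that were then counted.

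Intervals were matched 1 to 1 at 50% overlap or more and assigned to the nearest protein-coding gene of RefSeq GRCm38.p6 within 50000 bp. Counts were fitted with edgeR 4.0.16 (R 4.3.3; quasi-likelihood, TMM factors over all 14 columns, filterByExpr, which removed none), with 4 group means. P-values were adjusted by Benjamini-Hochberg over the whole table, at 0.05. An SE is the absolute log2 value over the square root of F. CPM values are TMM-scaled. The scripts were tested on simulated data. Alternatives included DESeq2 1.42.0 and limma 3.58.1.

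Members and lists were chosen with earlier results of these data known. Genes were named by rule: Egfr, up to 10 called loci per direction with at least 3 intervals and a level at or above the median, the 5 with most called intervals, the 5 called loci with the smallest p and opposite effects of at least 0.5, and the 3 smallest p per list. Other genes named were chosen after their values were seen. No chance test over lists was made.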

Additional observations from a re-analysis of the deposited data

Results flagged for a closer look

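At 6 loci the knockout effect differed between the diets by a test of the difference itself (edgeR). It was higher on the high-fat diet at Egfr by 1.90 and at Gadd45g by 0.96 on the log2 scale. The difference was -1.52 at Car3, -1.49 at Cyp2b13, -1.26 at Gsta3 and -0.80 at Abi3bp.

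Among the named loci, single high-fat libraries lay far from the other 3 of their group by Dixon's criterion, which chance meets in about 1 of 20 groups. There were 86 named loci with 2 high-fat groups each, so the number of libraries listed here is near what chance gives. Floxed library 3 stood apart at Igf2 (12.2 CPM), Prf1 (29 CPM), S100a8 (8.76 CPM) and S100a9 (19.8 CPM), and floxed library 2 at Cd4 (44.8 CPM). Knockout library 1 stood apart at Abcc4 (195 CPM), library 2 at Sox9 (23.6 CPM) and Xbp1 (234 CPM), library 3 at Pdgfrb (16.9 CPM) and library 4 at Plin4 (241 CPM). Chow groups, with 3 libraries each, were not examined in this way.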

How the results depend on the processing

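Counts of calls moved with the method, in the order intervals, intervals without Egfr, genes with a called interval, loci, and loci without Egfr. They were 283, 225, 137, 28 and 27 with DESeq2, and 497, 428, 253, 57 and 56 with limma-voom and quality weights. They were 397, 336, 175, 39 and 34 without both chow libraries numbered 2. With voom and cyclic loess, a change of model and scaling together, the first 3 were 20, 19 and 11, and 45% of the called intervals were higher, beside 73.3% in the reported fit. With library totals only, 7 loci without Egfr were called. In the robust fit 3 loci were called, and Egfr differed by 1.90 with an adjusted p of 0.131. The cause was not tested.

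Leaving out 1 library gave 82 to 370, 44 to 307, 21 to 147, 4 to 30 and 3 to 28, and Egfr ranged from 1.72 to 2.17. The highest counts came without the chow floxed library numbered 2 and the lowest without the chow knockout library numbered 1. Further shifts beyond 1.5 times were 89 intervals without high-fat floxed library 4 (51 without Egfr, 22 genes), 24 genes and 51 intervals without Egfr without high-fat floxed library 2, 25 genes without high-fat knockout library 2 or 4, and 53 intervals without Egfr without the latter. Without the chow knockout library numbered 2 there were 62 genes, 10 loci and 9 loci without Egfr, and 7 loci without Egfr without the chow knockout library numbered 3 or high-fat floxed library 3.

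With a replicate block on the number, counts were 301, 251, 135, 120 and 117, and Egfr differed by 1.83. Same-numbered libraries correlated at 0.219, 0.555 and 0.224 on chow and between -0.0237 and 0.15 on the high-fat diet, and not every library correlated best with its own number, so the numbers were not taken as pairs, although all 3 chow pairs were above 0.1.

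Car3 and Gsta3 were called in all 30 alternatives, Egfr and Abi3bp in 29, Cyp2b13 in 28 and Gadd45g in 11. No called value among the named loci and intervals changed sign. Among uncalled loci, Afp went from -0.31 to 0.05 when limited to intervals that overlap the gene, and Prf1 from 0.22 to -0.00 without the chow floxed library numbered 1. Chow libraries thinned to 7.25 M reads gave 6 called loci, all those of the unthinned fit, and 144 called intervals. A median SE of 0.162 per locus limits what could be detected.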
